A study of Homo sapiens with 3 samples.

Results

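The comparison described here sets DU145 cells given the BRAF mutant L597R against DU145 cells given wild-type BRAF. Its genes are the protein-coding genes with a mean of at least 5 FPKM over these libraries, which were 6191 of the 23379 genes in the deposited values and of the 14117 that are protein-coding. FPKM (fragments per kilobase of transcript, scaled to the counted reads of the library) is a level per length, so levels of different genes can be set side by side. The study has 3 bulk RNA sequencing libraries, with 1 in each of 3 groups. P-Enter is the negative control, WT is the library of cells that overexpress wild-type BRAF, and L597R is the library of cells transfected with a plasmid for the mutant. All came from DU145, an established human line that was derived from metastatic prostate cancer. The labels give no dose, no time, no clone and no number of cultures. With 1 library a side, no difference has a replicate check or a p-value. A value that differs between the libraries describes these libraries and not the conditions.

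BRAF is a serine/threonine kinase that binds active RAS and phosphorylates the kinases MEK1 and MEK2, which in turn phosphorylate the ERK kinases. Active ERK switches on transcription factors and also its own brakes, among them DUSP phosphatases and Sprouty proteins. The leucine exchanged in L597R lies in the activation segment of the kinase domain. In the name L597R the position is counted from 1 at the first amino acid of the protein, with the reference amino acid before it and that of the mutant after it. The deposited values are per gene, so they do not show which form of BRAF was read in any library.

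Totals of 13294004 (P-Enter), 15665132 (WT) and 16603676 (L597R) counted reads lay behind the values, as worked out from the FPKM values. The median gene of the comparison had 1194 reads in WT and 1293 in L597R. These genes held 87.0% of all FPKM in both libraries. Of the markers of the DU145 label, some were present and others absent. KRT18, a keratin of simple epithelium, was at 36.6 FPKM in WT and 37.6 in L597R, and EGFR at 35.8 and 36.2. CDH1, the cadherin of epithelial cells, had 0 reads in WT and in L597R and 1 in P-Enter, and KRT8, the partner of KRT18, was at 0.584 FPKM in WT and 0.534 in L597R. Of the 6 line markers in the comparison none differed by 0.32 or more in log2(FPKM + 1), L597R minus WT (3.72% over all genes). They ranged from -0.10 for PLAU to 0.05 for VIM on this scale. Among markers of other cells, PTPRC, PECAM1, VWF, COL1A1, COL3A1, ACTA2 and PDGFRB were all below 0.3 FPKM in every library. PTPRC had 0 reads in L597R, and VWF had 0 in WT. SYP, also of that list, exceeded this level, with FPKM values of 0.892 (P-Enter), 0.596 (WT) and 0.503 (L597R). For its members CD68, CD3E and CHGA the deposited values held no entry. The neuronal enolase ENO2 was the 1 gene of that list above the filter, at 7.53 FPKM in WT and 7.64 in L597R. No gene of the androgen-driven luminal list reached the filter.

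BRAF was at 1.65 in P-Enter, 4.41 in WT and 9.59 FPKM in L597R. L597R was thus the highest and P-Enter the lowest, and the level in L597R was 2.18 times that in WT (exact 95% Clopper-Pearson interval of the read ratio 2.05 to 2.31). This interval, like those below, covers counting error only. The FPKM of BRAF divides its reads by a length of 23433 bases. Reads of introduced BRAF and of the cells' own gene are not separated, so 2.18 need not be the ratio of introduced BRAF. BRAF (ENSG00000157764) lies on chromosome 7 from 140719327 to 140924928 of GRCh38. Its 4 neighbours within 200 kb with at least 1 FPKM had log2 differences from -0.21 for ADCK2 to 0.11 for NDUFB2. The mutation and the level of BRAF cannot be told apart in any result of this comparison.

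Besides BRAF, few genes differed by much between L597R and WT. Differences are given as L597R minus WT in log2(FPKM + 1), a scale that understates the change of low genes. Their median was 0.00, the middle 50% of genes lay from -0.09 to 0.12, and the range from the 1st to the 99th percentile was -0.31 to 0.38. At least 1.5-fold on this scale, 10 of the 6191 genes differed (0.162%), 5 higher (0.0808%) and 5 lower (0.0808%) in L597R. At 2-fold there were 3 (0.0485%), with CDK7 higher (0.0162%) and RPS25 and ELP5 lower (0.0323%). The filter on the mean is built from the same values as the difference. CDK7, RAD17, C1orf53 and BRAF were below 5 FPKM in WT and passed the filter only through L597R. RPS25 and ELP5 were below 5 FPKM in L597R and passed it only through WT. For 48.5% of all genes the interval of the read ratio did not hold 1, lying above 1 for 27.2% and below 1 for 21.3%, so at this depth small differences were commonly larger than counting error. Intervals narrow with more reads, so these shares are a like background only for genes of similar depth. For 8 of the 10 genes the whole interval lay beyond 1.5-fold, the exceptions being C1orf53 and SNAPC1.

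**Figure D1:**
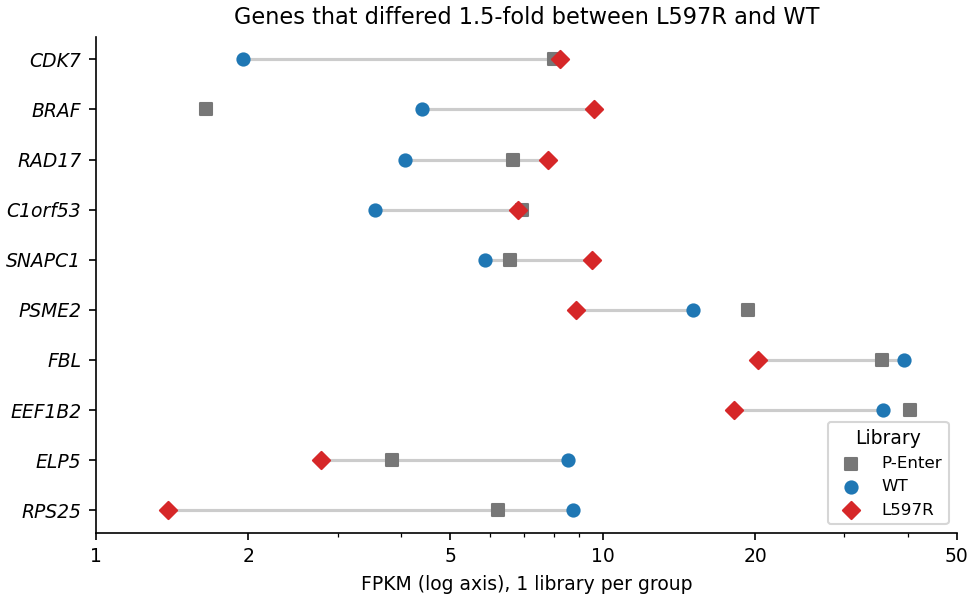
FPKM (log axis) of the 10 genes that differed 1.5-fold between L597R (red diamonds) and WT (blue circles), with P-Enter as grey squares and 1 library per group. P-Enter sits beside L597R for CDK7 and C1orf53, at 8.03 and 6.95 FPKM, and on the side of WT for FBL and EEF1B2, at 35.6 and 40.3 FPKM.

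The largest difference upward was that of CDK7, which activates the cell-cycle kinases and, within TFIIH, phosphorylates RNA polymerase II. CDK7 (ENSG00000134058, chromosome 5, 69234795 to 69277430) was at 8.03 in P-Enter, 1.96 in WT and 8.23 FPKM in L597R. It was WT that stood apart, from 74 reads against 330 in L597R (difference 1.64, read ratio 4.21, 3.26 to 5.49). RAD17, which loads the checkpoint clamp at damaged DNA, lies 91.9 kb farther along the same chromosome (69369293 to 69414801). RAD17 was at 6.66 in P-Enter, 4.07 in WT and 7.79 FPKM in L597R, so it was also lowest in WT (0.79, read ratio 1.92, 1.65 to 2.23). CCDC125, which lies between CDK7 and RAD17 and is below the filter, was at 2.71, 1.74 and 2.38 FPKM in P-Enter, WT and L597R (read ratio L597R to WT 1.37, 1.15 to 1.64). The genes on the other side of CDK7 did not share this order. The mitotic cyclin gene CCNB1 had a difference of -0.02, the centromere gene CENPH 0.01 and the mitochondrial ribosome gene MRPS36, 4.67 kb from CDK7, -0.14. Beyond RAD17, the tight junction gene OCLN was lower in L597R, at 1.77 FPKM in WT and 1.18 in L597R (-0.35).

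The other genes on the higher side were C1orf53 and SNAPC1. C1orf53 (chromosome 1, 197902647 to 197907367), an open reading frame named only by its place, was at 6.95 in P-Enter, 3.56 in WT and 6.81 FPKM in L597R. It rested on 35 reads in WT and 71 in L597R (0.78, read ratio 1.91, 1.26 to 2.96), and WT was again the library apart. SNAPC1, a subunit of the complex that starts small nuclear RNA transcription, was at 6.56 in P-Enter, 5.86 in WT and 9.55 FPKM in L597R (0.62, read ratio 1.63, 1.39 to 1.92). Here L597R was the library apart. SNAPC1 lies on chromosome 14 from 61762357 to 61796428, 14.1 kb from HIF1A, the oxygen-regulated transcription factor gene, which was at 31.7 FPKM in WT and 38.1 in L597R (0.26, read ratio 1.2, 1.14 to 1.27).

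The 5 lower genes were RPS25, ELP5, EEF1B2, FBL and PSME2. RPS25, which belongs to the small subunit of the ribosome (chromosome 11, 119015712 to 119018691), was at 6.21 in P-Enter, 8.73 in WT and 1.39 FPKM in L597R. It had 202 reads in WT and 34 in L597R (-2.03, read ratio 0.159, 0.107 to 0.229), and L597R was below both other libraries. EEF1B2, an exchange factor of translation elongation (chromosome 2, 206159585 to 206162928), was at 40.3 in P-Enter, 35.7 in WT and 18.1 FPKM in L597R (-0.94, read ratio 0.508, 0.458 to 0.562). FBL, the methyltransferase fibrillarin that modifies ribosomal RNA (chromosome 19, 39834458 to 39846414), was at 35.6, 39.3 and 20.2 FPKM in the same order (-0.93, read ratio 0.514, 0.469 to 0.564). For EEF1B2 and FBL too, L597R was the library apart. Ribosomal protein genes and EEF1B2 have processed copies elsewhere in the genome, and how reads of such copies were assigned is not given in the sources used here, so these values are uncertain.

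The remaining lower genes were ELP5 and PSME2. ELP5, a subunit of the Elongator complex that modifies transfer RNAs (chromosome 17, 7251416 to 7259940), was at 3.83 in P-Enter, 8.56 in WT and 2.79 FPKM in L597R. WT was above both other libraries (-1.34, read ratio 0.326, 0.264 to 0.399). PSME2, a subunit of the proteasome activator PA28 (chromosome 14, 24143362 to 24147570), was at 19.3 in P-Enter, 15.1 in WT and 8.88 FPKM in L597R (-0.70, read ratio 0.590, 0.528 to 0.658). Its partner subunit PSME1, 4.40 kb away, was at 26.1 FPKM in WT and 27.4 in L597R, and its interval held 1 (read ratio 1.05, 0.947 to 1.16). The proteasome gene PSMC4, 125 kb from FBL and below the filter, was at 5.43 FPKM in WT and 3.64 in L597R (read ratio 0.670, 0.541 to 0.827).

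Of the 10 genes, 7 share exon sequence with another gene (70%), against 46.5% of all genes of the comparison, and 6 do so with a gene on the opposite strand (60%, against 39.8%). For SNAPC1 the shared sequence is with a gene on the same strand, for RPS25, ELP5, RAD17 and BRAF it is on the opposite strand, and for EEF1B2 and PSME2 it is on both. How the counting treated strand and shared sequence is not given in the sources used here, so reads of the partners cannot be told apart. CDK7, C1orf53 and FBL share none. Just outside the 1.5-fold rule lay the autophagy gene MAP1LC3A (-0.58), the EGFR ligand AREG (0.57), the mitotic gene RCC2 (-0.56) and TGDS (0.56), against 0.62 for SNAPC1 just inside. Just inside the filter on level was MAP3K6, at 4.97 FPKM in WT and 5.04 in L597R, and just outside it was RELCH, at 4.75 and 5.25. For 77.2% of all genes the P-Enter level was nearer to WT than to L597R. Among the genes past 1.5-fold this held for 2 of the 5 higher and 4 of the 5 lower ones. At a difference of at least 0.32 it held for 165 of the 177 higher (93.2%) and 45 of the 53 lower genes (84.9%). L597R as the library apart was therefore common among genes chosen by their difference.

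The smaller differences followed the base composition of the transcripts. Across the 6191 genes, Spearman's rho between the GC content of the exons and the difference was -0.66. Genes are not independent replicates, and all of them share the same pair of libraries. Genes were ordered by GC content and split into 10 bins of equal number. In the bin of lowest GC content (32.0 to 38.7%), the median difference was 0.21, equal to 1.16-fold on the same scale, and 98.1% of the genes were higher in L597R. The median was 0.16 in the next bin and 0.10 in the one after it, passed through -0.01 in the fifth, and was between -0.09 and -0.08 in the 3 bins with the highest GC content. The trend therefore levelled off among GC-rich genes. The same bins had medians from 0.12 to -0.05 for WT against P-Enter and from 0.33 to -0.13 for L597R against P-Enter, comparisons that share libraries with this one. Differences followed exon length (rho 0.11) and mean level (-0.11) far less.

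**Figure D2:**
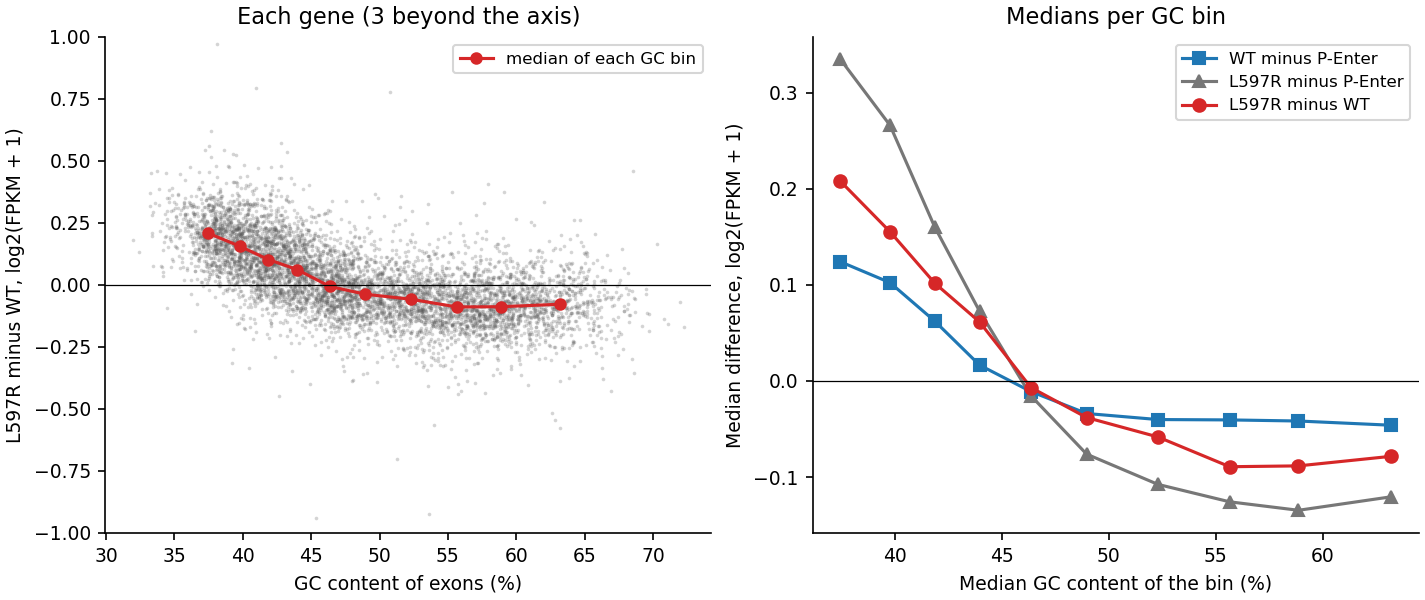
Left, difference of each gene in log2(FPKM + 1), L597R minus WT, against the GC content of its exons, with the median of each GC bin in red and 3 genes beyond the axis. Right, medians per GC bin for all 3 pairs of libraries, which fall from 0.21 to -0.08 for L597R against WT.

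Which genes crossed a lower bound was tied to this trend. A difference of at least 0.32 in size was found in 230 genes (3.72%), of which 177 were higher (2.86%) and 53 lower (0.856%) in L597R. Of the higher ones 152 lay in the 3 bins of lowest GC content, and of the lower ones 46 lay in the 5 bins of highest GC content. Their median GC content was 39.4% and 55.2%, against 47.5% over all genes. The median difference of chromosomes went the same way, from -0.08 on chromosome 19, which is GC-rich, to 0.11 on chromosome 13 (rho with median GC content -0.97 over 23 chromosomes). A regression with cubic terms in GC content, log length and log mean FPKM removed 42.6% of the variance of the differences, and GC content alone removed 42.4%. After it, 79 genes were past the 0.32 bound (1.28%), 45 higher (0.727%) and 34 lower (0.549%). Of these, 35 and 28 had also passed before, while 142 and 25 no longer passed and 10 and 6 came in. Chromosome medians then lay between -0.02 and 0.04, apart from the mitochondrial genome. Whether the trend arose in the cells or in making and reading the libraries was not tested.

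Of the 10 genes past 1.5-fold, 9 still passed after the regression (0.145% of all genes), 4 higher (0.0646%) and 5 lower (0.0808%). SNAPC1, with a GC content of 37.7%, was left with 0.41, while CDK7 kept 1.54, BRAF 0.80 and RPS25 -2.00. Some genes below 1.5-fold differed by more once the trend was taken off. These examples were chosen after their values were seen. HMOX1, which degrades haem, went from 0.41 to 0.51, and OSGIN1, an oxidative stress response gene, from 0.37 to 0.46. HRAS, a RAS family member that feeds into BRAF, was at 16.0 in P-Enter, 7.94 in WT and 11.3 FPKM in L597R, with 0.46 before and 0.49 after. MT-ND6, a mitochondrially encoded subunit of complex I, went from -0.45 to -0.51. Others shrank, such as the cystine transporter gene SLC7A11 (0.45 to 0.20), the collagen-modifying PLOD2 (0.42 to 0.18) and the cholesterol carrier STARD4 (0.38 to 0.10).

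The antioxidant genes that the transcription factor NRF2 drives had the highest median of any list of 5 or more genes. Of 21 genes, 16 were higher (50.9% over all genes) and 5 lower in L597R, with a median difference of 0.13 before and 0.12 after the regression, against 0.00 over all genes both times. At the 0.32 bound 5 were higher (2.86% over all genes) and 0 lower (0.856%), and after the regression 4 were higher (0.727%). The interval of the read ratio lay above 1 for 12 genes (27.2% over all genes) and below 1 for 3 (21.3%). GCLM, the regulatory subunit of the enzyme that starts glutathione synthesis, was at 23.3 in P-Enter, 27.8 in WT and 40.9 FPKM in L597R (0.54, read ratio 1.47, 1.4 to 1.55). SLC7A11, which imports the cystine for glutathione, was at 22.3, 28.4 and 39.0 FPKM in the same order (read ratio 1.38, 1.32 to 1.43). HMOX1 was at 193, 209 and 277 FPKM (read ratio 1.33, 1.29 to 1.37). In each of these genes L597R was highest and WT lay nearer to P-Enter. This is not particular to them: P-Enter was nearer to WT than to L597R for 93.2% of all genes higher by at least 0.32. NFE2L2, the gene of NRF2 itself, was at 12.9 in P-Enter, 14.5 in WT and 19.5 FPKM in L597R (0.40), and TXNRD1, a thioredoxin reductase, at 207, 231 and 284 (0.30). FTL, the ferritin light chain and among the most abundant mRNAs, was at 6003, 6329 and 7065 FPKM (0.16). Of the enzymes of the pentose phosphate pathway, PGD was at 79.1 FPKM in WT and 79.1 in L597R, and TKT at 76.2 and 77.1. KEAP1, the inhibitor of NRF2, was at 57.2 and 53.3 FPKM (-0.10).

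NRF2 binds antioxidant response elements, searched here as TGACNNNGC on both strands in the RefSeq windows of GRCh38.p14 that run from 250 bases before to 50 after each start site. Of the 21 genes 15 had a window, and 6 of these 15 held a match (40%), against 20.1% of the 5225 genes of the comparison with a window. Counted per window of 300 bases, the share was 31.8% against 15.2%. The window of GCLM and 1 of the 2 windows of TXNRD1 are shown as examples of a match in genes that were higher in L597R; capitals mark it, read on the opposite strand.
GCLM, chr1:93909381-93909680, minus strand: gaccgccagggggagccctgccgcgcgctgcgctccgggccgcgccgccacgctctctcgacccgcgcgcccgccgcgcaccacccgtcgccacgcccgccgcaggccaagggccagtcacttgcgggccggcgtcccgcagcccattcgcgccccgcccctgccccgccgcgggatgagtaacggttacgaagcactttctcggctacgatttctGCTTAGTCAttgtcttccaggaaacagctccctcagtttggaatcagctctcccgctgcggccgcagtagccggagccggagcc
TXNRD1, chr12:104286782-104287081, plus strand: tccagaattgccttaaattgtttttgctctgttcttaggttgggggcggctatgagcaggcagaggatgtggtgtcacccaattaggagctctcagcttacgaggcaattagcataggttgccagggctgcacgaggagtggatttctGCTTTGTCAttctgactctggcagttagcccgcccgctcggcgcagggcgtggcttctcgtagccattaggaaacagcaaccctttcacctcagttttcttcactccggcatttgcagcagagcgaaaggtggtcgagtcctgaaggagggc
The match shown lies 34 bases before the start site in GCLM and 102 before it in TXNRD1. The other window of TXNRD1, at its upstream start site (chr12:104215529-104215828), held 2 matches. KEAP1 and PGD, which were not higher in L597R, also held a match, while no window of NFE2L2 (0.40) or OSGIN1 (0.37), both higher, held one. A match describes these letters and is no measured site of binding.

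The 13 mRNAs encoded by the mitochondrial genome, all subunits of the respiratory chain and ATP synthase, had the lowest median, -0.14 before and -0.13 after the regression. Before it 11 were lower and 2 higher in L597R, and after it all 13 were lower. The interval lay below 1 for 10 of them (21.3% over all genes) and above 1 for 1 (27.2%). In WT, MT-ND6 had 2948 reads and MT-ND5 22000, against a median of 1194 over all genes. The shares over all genes are therefore not a like background here, and the 13 are not independent observations. MT-ND6 was at 338 in P-Enter, 358 in WT and 263 FPKM in L597R (read ratio 0.733, 0.693 to 0.774), and MT-ND5, a further complex I subunit, at 737, 775 and 587 (0.757, 0.742 to 0.772). In both, L597R was the lowest library. MT-CO3, a subunit of cytochrome oxidase, was at 2104 FPKM in WT and 1796 in L597R (-0.23), while MT-ND2 was higher, at 996 and 1033 (0.05). MT-ND6 is encoded on the strand opposite to the other mRNAs, so without the strand setting its reads are uncertain. Together the mitochondrial mRNAs took 1.62% of reads in WT and 1.46% in L597R. In bulk RNA, less of an RNA per cell and fewer cells that hold it cannot be told apart.

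Nuclear genes of the same machinery did not share that median. The 24 nuclear complex I genes had a median of 0.00 (-0.01 after the regression), from -0.20 for NDUFV1 to 0.19 for NDUFB3. Genes of complexes II to V, 32 in number, had -0.03 (-0.05 after), from -0.26 for UQCR10 to 0.27 for UQCRC2. None of these passed the 0.32 bound (3.72% over all genes). The mitochondrial ribosome, 66 genes, had 0.00 (-0.03 after), from -0.26 for MRPS18B (-0.22 after) to 0.33 for MRPL50 (0.05 after). Of the 8 genes of the mitochondrial calcium uniporter list, with a median of -0.02 (-0.04 after), the gatekeeper subunit MICU2 was higher at 7.72 FPKM in WT and 11.6 in L597R (0.53), and LETM1 was lowest at 20.6 and 18.1 (-0.18).

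**Figure D3:**
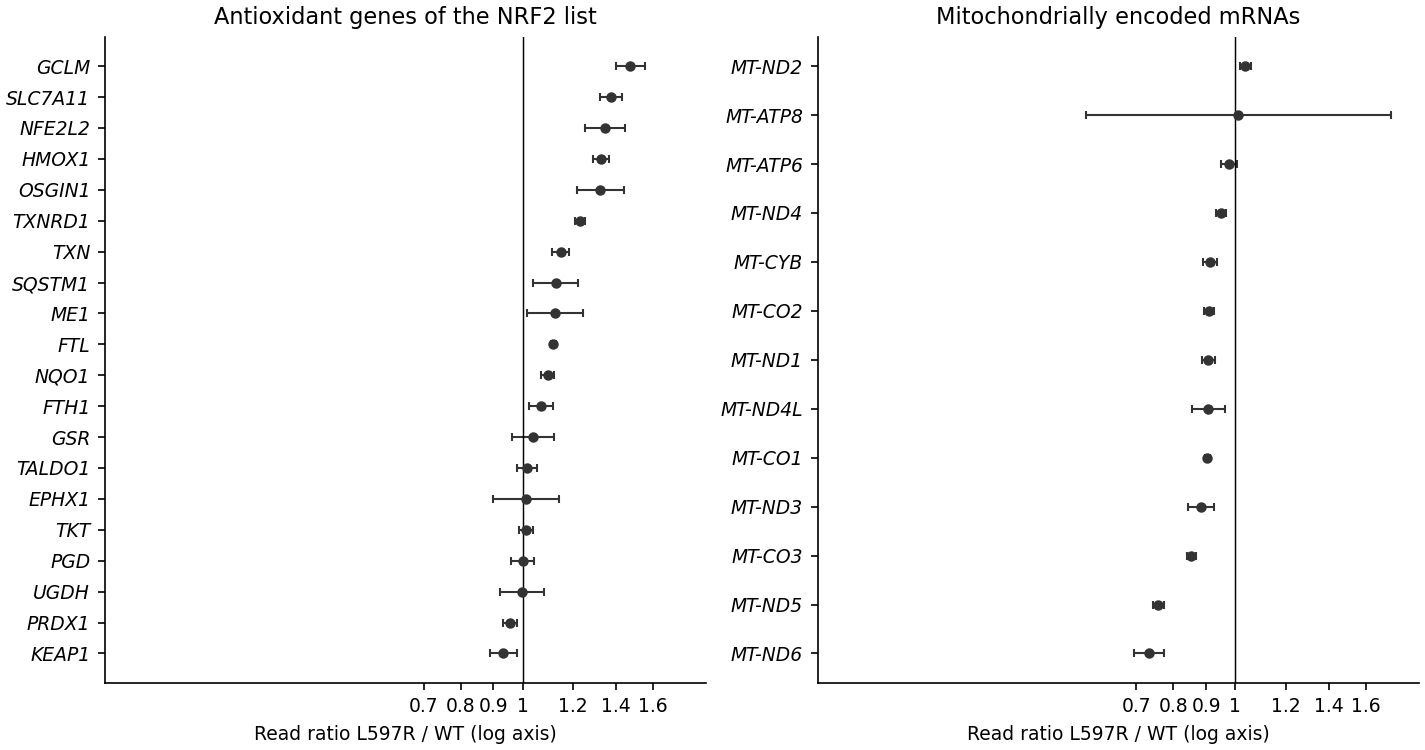
Read ratio of L597R to WT (log axis) for 20 of the 21 genes of the NRF2 list and for the mitochondrially encoded mRNAs, with exact 95% intervals for counting error as bars and a line at 1. The interval lies above 1 for 12 of the antioxidant genes and below 1 for 10 of 13 mitochondrial mRNAs.

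Transcripts used to read ERK activity had a median just below 0. The 14 genes of ERK output and feedback above the filter had a median of -0.03 (-0.02 after the regression), 7 higher and 7 lower. None passed the 0.32 bound, against 3.72% over all genes, a share at which a list of this size may hold none. DUSP6, the ERK phosphatase, was at 5.48 in P-Enter, 6.07 in WT and 5.42 FPKM in L597R, and its interval held 1 (read ratio 0.892, 0.768 to 1.04). DUSP5, a nuclear ERK phosphatase, was the lowest of the list at 89.6, 88.9 and 78.6 FPKM (-0.18). UPP1, a uridine phosphorylase, was the highest at 9.77, 9.0 and 10.6 (0.22). CCND1, the G1 cyclin induced by ERK, was at 181 FPKM in WT and 170 in L597R (-0.09), and MYC at 31.0 and 31.2 (0.00).

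Of the genes of the pathway itself, BRAF and HRAS were the ones past the 0.32 bound (3.72% over all genes). The 20 RAS-RAF-MEK-ERK genes had a median of 0.00 (-0.01 after), 10 higher and 10 lower. ARAF, a paralogue of BRAF, was at 19.0 in P-Enter, 19.1 in WT and 16.0 FPKM in L597R (-0.24). The MEK genes MAP2K1 (-0.03) and MAP2K2 (-0.16) and the ERK gene MAPK3 (-0.15) were each within the 0.32 bound. AP-1 and immediate-early genes, 14 in all, had a median of 0.00 (0.05 after), from -0.19 for JUND to 0.27 for KLF10. The 11 receptor tyrosine kinases and their ligands had 0.00 (0.01 after). The interval lay below 1 for 3 genes (21.3% over all genes) and above it for 3 (27.2%), so these counts were near the shares over all genes. The 3 above were AREG, EREG and MET. AREG, amphiregulin, was at 4.90 in P-Enter, 4.24 in WT and 6.79 FPKM in L597R (read ratio 1.6, 1.26 to 2.05), and EREG, epiregulin, at 7.99, 8.92 and 12.6 (1.41, 1.29 to 1.55). MET, the receptor of hepatocyte growth factor, was at 18.5, 19.6 and 24.4 FPKM (1.24, 1.17 to 1.31). EGFR, to which AREG and EREG bind, had a difference of 0.01, and the kinase EPHB4 was the lowest of the list (-0.15).

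After the regression the list of the ATF4 stress response came close to the NRF2 list, and the other stress-response lists lay nearer to 0. The NRF2 list had 17 of 21 genes above 0 after it, against 49.7% of all genes. The 18 genes of the ATF4 stress response had a median of 0.09 (0.10 after), 11 higher and 7 lower. After the regression 15 of the 18 were above 0. For the ATF4 list the interval lay above 1 for 10 genes (27.2% over all genes) and below 1 for 2 (21.3%). SLC7A11 was its highest member, DDIT3, the transcription factor CHOP, was at 5.37 (110 reads) in WT and 7.05 FPKM (153 reads) in L597R (0.34), and the serine enzyme gene PSPH was lowest (-0.13). ATF4 itself was at 122 FPKM in WT and 118 in L597R (-0.04). Transfer RNA synthetases, 19 genes, had a median of 0.03 (0.01 after), from -0.20 for VARS1 to 0.22 for EPRS1. Chaperones of the endoplasmic reticulum, 21 genes, had -0.04 (-0.03 after), from -0.20 for CRELD2 to 0.26 for DNAJB9. Heat shock genes, 16 in all, had 0.01 (0.05 after), from -0.19 for TRAP1 to 0.46 for DNAJB4, a co-chaperone at 11.6 FPKM in WT and 16.3 in L597R. Metallothionein and zinc genes, 5 above the filter, had 0.09 (0.01 after), from -0.10 for MTF1 to 0.20 for the zinc exporter SLC30A1. The 15 genes of iron and haem had 0.06 (0.04 after), with the highest value, 0.35, for TMEM14C. TMEM14C, needed for haem synthesis, was at 28.9 in P-Enter, 13.4 in WT and 17.3 FPKM in L597R, so both BRAF libraries lay below P-Enter.

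The ribosomal, translation factor, proteasome and Elongator lists had medians slightly below 0 before and after the regression. The small ribosomal subunit, 29 genes, had a median of -0.06 (-0.03 after), and the large subunit, 44 genes, -0.04 (-0.02 after), from -0.18 for RPLP0 to 0.13 for RPL22. Besides RPS25 no ribosomal gene of either list passed the 0.32 bound (3.72% over all genes). Translation factors, 36 genes, had -0.06 (-0.03 after), and EEF1B2 was the 1 among them past the 0.32 bound (3.72% over all genes). The 30 proteasome genes had -0.04 (-0.03 after) with PSME2 as the 1 past the 0.32 bound (3.72% over all genes). PSMC4, at -0.47, was below the filter and is not among them. The 5 Elongator genes had -0.01 (-0.03 after), and apart from ELP5 they ranged from -0.09 for ELP2 to 0.19 for DPH3. RPL7A was the 1 gene of the surfeit cluster list that reached the filter, at 21.8 FPKM in WT and 20.3 in L597R (-0.10).

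The CDK-activating kinase and TFIIH list and the Mediator list had medians above 0 that were nearer to 0 after the regression. The 7 genes of the CDK-activating kinase and TFIIH had 0.10 (0.02 after). CCNH, the cyclin partner of CDK7, was at 8.28 in P-Enter, 8.97 in WT and 10.3 FPKM in L597R (0.18, and -0.01 after), and MNAT1, their assembly factor, at 7.14, 7.92 and 8.40 (0.08, and -0.16 after). Neither shared the low WT value of CDK7. Mediator, 22 genes, had 0.08 (-0.02 after), from -0.26 for MED30 to 0.43 for the kinase subunit CDK8, at 6.60 FPKM in WT and 9.24 in L597R. Splicing genes, 37 in all, had a median near 0 both times, 0.02 (-0.03 after), from -0.16 for HNRNPD to 0.30 for the kinase CLK1.

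Among metabolic lists, glycolysis lay below 0 before the regression and at 0 after it. Glycolysis, 18 genes with a median GC content of 54.4%, had a median of -0.09, with 15 lower and 3 higher in L597R, and 0.00 after the regression, with 10 lower and 8 higher. PFKL, the liver phosphofructokinase, was its lowest at 7.70 FPKM in WT and 6.04 in L597R (-0.31), and BNIP3, a mitophagy receptor, its highest (0.11). Cholesterol synthesis, 22 genes, had -0.01 (-0.01 after), from -0.25 for MVK to 0.38 for STARD4. Fatty acid synthesis, 13 genes, had -0.06 (-0.04 after), from -0.34 for AGPAT2, at 21.8 FPKM in WT and 17.1 in L597R, to 0.22 for ACSL4. Lysosome and autophagy genes, 23 in all, had 0.05 (0.04 after), from -0.13 for the protease CTSB to 0.26 for CTSD.

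Growth and survival lists stayed close to 0. The 31 genes of G1/S and replication had a median of -0.05 (-0.04 after), from -0.32 for the DNA ligase LIG1 to 0.13 for the cyclin CCNE1. The 31 of G2/M and mitosis had 0.02 (-0.01 after), from -0.17 for CDC20 to 0.39 for the spindle checkpoint kinase TTK. Histones, 6 above the filter of 22 in the deposited values, had -0.02 (0.07 after), from -0.30 for H1-2 to 0.22 for H2AC6. With a minimum mean of 1 FPKM their median was 0.13, so its sign depended on the filter. Most histone mRNAs lack a poly(A) tail, and the kit selects for it. The 10 targets of p53 had 0.02 (0.02 after), from -0.20 for DDB2 to 0.22 for MDM2. In the BCL2 family and caspase list, 14 genes had a median of 0.07 (0.06 after). BIRC2, an inhibitor of apoptosis, was its highest at 23.7 in P-Enter, 25.7 in WT and 36.2 FPKM in L597R (0.48, read ratio 1.41, 1.33 to 1.5), and the survival gene BCL2L1 its lowest at 41.7, 43.5 and 36.2 (-0.26).

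Lists of cell shape, matrix and signalling had members on both sides of 0. YAP and TGF-beta targets, 15 genes, had a median of 0.00 (0.02 after), with ANKRD1, a YAP target, at 111 in P-Enter, 117 in WT and 170 FPKM in L597R (0.54, read ratio 1.45, 1.39 to 1.52). ID1, a target of bone morphogenetic proteins, was at 216, 218 and 177 FPKM (-0.30), and for both genes L597R was the library apart. Actin cytoskeleton genes, 22 in all, had -0.04 (0.05 after), from -0.23 for ZYX to 0.38 for CALD1. Integrins and laminins, 11 genes, had -0.06 (0.00 after), from -0.22 for ITGA3 to 0.32 for ITGAV. Collagens and their processing, 8 genes, had -0.07 (0.00 after), from -0.23 for LOXL2 to 0.42 for PLOD2. Matrix proteases and inhibitors, 11 genes, had 0.05 (0.01 after), from -0.17 for MMP14 to 0.26 for CTSD. Mesenchymal markers, 9 genes, had 0.01 (0.01 after), from LOXL2 to 0.33 for LOX. Epithelial and junction genes, 6 above the filter of 21 in the deposited values, had 0.04 (0.10 after), from -0.02 for KRT7 to 0.32 for DSG2. NF-kB targets and cytokines, 8 genes, had 0.09 (0.05 after), from -0.10 for NFKB2 to 0.29 for BIRC3, and interferon and MHC class I genes, 11 in all, had -0.07 (-0.02 after), with the lowest value, -0.27, for IFI35.

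**Figure D4:**
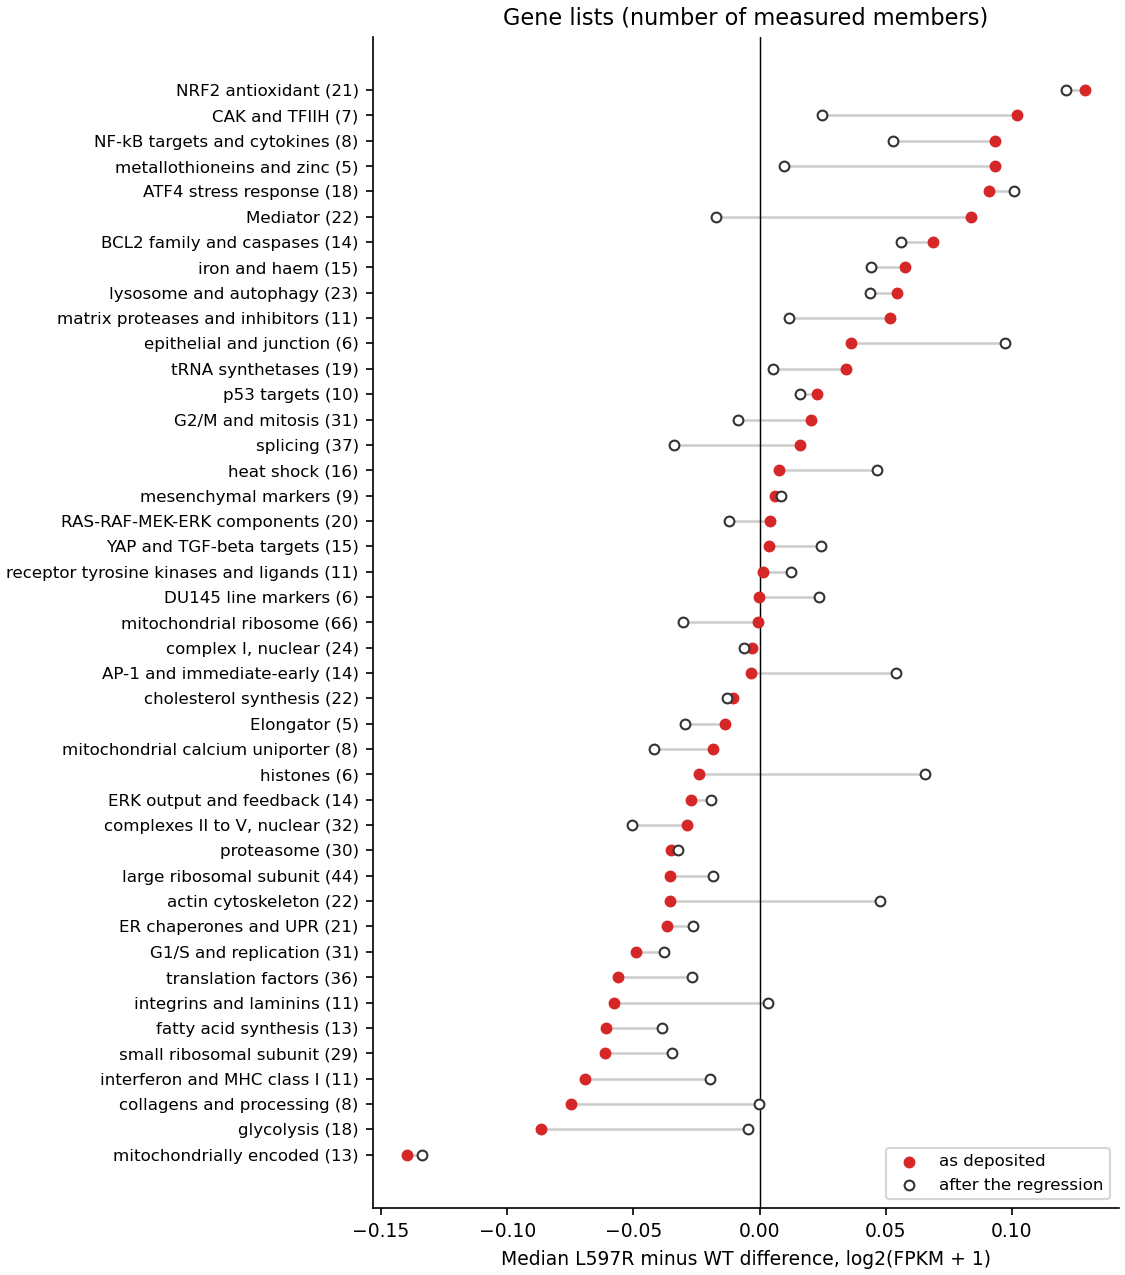
Median difference in log2(FPKM + 1), L597R minus WT, of each list with at least 5 genes, as deposited (red) and after the regression on GC content, length and level (open), with the number of genes in parentheses. The NRF2 list at 0.13 and the mitochondrially encoded mRNAs at -0.14 lie at the ends and barely move, while glycolysis moves from -0.09 to 0.00.

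Of the 43 lists with at least 5 genes, 40 had a median within 0.1 of 0. In 39 of the 43, the gene with the highest difference had a lower GC content than the gene with the lowest, so the ends of most lists were ordered as the trend orders all genes. Values named at these ends are those before the regression unless marked. After it some shrank, such as BIRC3 (0.29 to 0.07), ITGAV (0.32 to 0.12), ACSL4 (0.22 to 0.03) and SLC30A1 (0.20 to 0.01). Others grew in size, such as MED30 (-0.26 to -0.43) and HNRNPD (-0.16 to -0.30).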

How the data were processed

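RNA was measured in 3 libraries, made with a stranded mRNA kit per the labels' protocols. The submitters' processing notes name HTSeq, Cufflinks, HISAT2 and Trimmomatic and the build hg38/GRCh38; tool versions and the strand setting are not given in the sources used here. Per the file headers, the values the authors deposited are FPKM for each Ensembl gene, and no other scaling is stated.

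Gene type, position, exon length and exon GC content came from GENCODE 29 on GRCh38 (22807 of 23379 IDs matched, and 572 without a gene model were left out, 5 of them at 5 FPKM or more) and promoter windows from RefSeq GRCh38.p14. Library totals and lengths that turn FPKM into whole reads (tolerance 1e-05) in every library were found for all 6191 genes; the length was the annotated one for 24.3% and within 10% of it for 87.7%. The reads sum to 101% of the totals, and the cause was not tested. Read ratios have exact 95% Clopper-Pearson intervals for counting error; PCR copies are not independent molecules. Other differences are on the log2 scale of FPKM plus a pseudocount of 1. No count model was fitted and no test was made. The scripts were tested on simulated data.

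The genes and the 46 gene lists were chosen with earlier results of these data known. Genes were named by rule: BRAF, those past 1.5-fold, from each list up to 3 past it or else the highest and the lowest, the genes at the edges of the filter, and the markers. Some genes that this rule names are not reported here, though list counts and medians include them. Other list members, and neighbours of the named genes, were chosen after their values were seen, as was the bound of 0.32 in log2 for list members and for the regression. Alternatives were pseudocounts of 0.1 and 5, means of 1 and 10 FPKM and no filter, a bound of 0.32, 2-fold, rescaling by the median ratio, the regressions, recovered reads, and leaving out overlapping genes. Software was scipy 1.17.1, pandas 2.3.3, numpy 2.4.6 and matplotlib 3.10.9 under Python 3.11.15.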

Additional observations from a re-analysis of the deposited data

How the results depend on the processing

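The counts at 1.5-fold, 5 higher and 5 lower in L597R, depended on the pseudocount, the filter and the fold, and in each case the setting's own construction changes which genes can pass. They were 10 and 9 with a pseudocount of 0.1 FPKM, 2 and 4 with one of 5, 21 and 23 with a minimum mean of 1 FPKM, 0 and 3 with one of 10, 28 and 35 without a filter, 1 and 2 at 2-fold, and 177 and 53 at a difference of 0.32. With read ratios beyond 1.5-fold and an interval beyond 1 they were 11 and 9, with the interval wholly beyond 1.5-fold 3 and 5, and without genes that overlap another gene 2 and 1. Rescaling by the median ratio left 5 and 5, and the regressions, on GC content alone or with length and level, left 4 and 5. The counts at 0.32, 177 and 53, were 45 and 34 after the regression and 99 and 29 without overlapping genes; this bound and its alternatives were added after the data had been seen. The GC trend had a rho of -0.66 with a pseudocount of 0.1, -0.66 with a minimum mean of 10 FPKM and -0.59 with one of 1. The trend stayed negative. No named gene past 1.5-fold changed direction after the regression. The other alternatives run for single genes were the pseudocounts, which cannot change a direction, and a rescaling by 1.003, too small to change one of that size. After the regression the values of 43 named genes lay outside their counting interval, and those of 42 stayed inside. Lists were checked for a reversal only where the median was at least 0.1 in size, and none of these 3 reversed. Smaller list medians did change sign. By more than 0.1, histones went from -0.02 to 0.13 with a minimum mean of 1 FPKM, and Mediator from 0.08 to -0.02 after the regression. Further lists changed sign by less. Examples were actin (-0.04 to 0.05) and splicing (0.02 to -0.03) after the regression, and heat shock (0.01 to -0.02) with a minimum mean of 1 FPKM.

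No paired analysis was possible because each group has 1 library, and for the same reason no library could be left out in turn. GC content of the gene body was not run, since no genome sequence was used here. Depth limits the genes with few reads, such as C1orf53 with 35 reads in WT.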

Other observations

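Genes below the filter held further differences beyond counting error. Of the 3171 protein-coding genes with a mean of 1 to 5 FPKM, 18 had an interval of the read ratio wholly beyond 1.5-fold, 9 higher and 9 lower in L597R, against 8 of the 6191 genes above the filter. Those described next were picked once their values were known. The stromelysin gene MMP3, a matrix protease, was at 0.933 in P-Enter, 1.31 in WT and 4.13 FPKM in L597R, from 23, 38 and 127 reads (read ratio L597R to WT 3.15, 2.18 to 4.66). L597R was the library apart. MOAP1, a BAX-binding protein, was at 2.53, 0.581 and 2.62 FPKM (4.51, 2.86 to 7.41), SURF4, a cargo receptor of the endoplasmic reticulum, at 2.84, 1.13 and 2.33 (2.06, 1.51 to 2.83), and MAML1, a Notch coactivator, at 2.12, 0.984 and 1.98 (2.01, 1.56 to 2.6). In these 3 genes, as in CDK7, WT was the low library and P-Enter lay near L597R.

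On the lower side, HSF1, the master regulator of heat shock genes, was at 1.94 in P-Enter, 2.61 in WT and 0.942 FPKM in L597R (read ratio 0.361, 0.277 to 0.467). The polarity gene DLG5 was at 2.49, 2.34 and 1.15 FPKM (0.490, 0.411 to 0.583). For both genes L597R was the lowest library. The heat shock list, whose genes HSF1 drives, had a median difference of 0.01.

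Along the chromosomes, medians of 15 neighbouring genes of the comparison after the regression ranged from -0.13 to 0.12 over 5856 overlapping windows, with the middle 95% from -0.07 to 0.07. The lowest window lay on chromosome 12 from 6965327 to 14803540, where 13 of 15 genes were below 0.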
